A study of Mus musculus with 23 samples.

Results

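Interferon-stimulated genes are the genes that cells switch on when interferon binds its receptor, and a list of 37 of them was followed here through tumors and B cells of mice. The list was set by name and by no rule on the values, but with earlier results of these data known. A gene was kept where its profile reached 1 CPM (counts scaled to library size) in at least 4 of 23 libraries. The CPM levels printed below are scaled with TMM factors as well. Of the 37 genes, 33 were kept, out of 11637 profiles at that level and 15881 with any value above 0. IFIT1, MX2, STAT2 and IFITM3 carry no values in the deposited table and were not analysed here. All 33 genes with values met the level, so the minimum removed none of them. The table gives mouse genes human symbols, which are used here, and a human symbol does not always point to a single mouse gene.

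The libraries are RNA sequencing of B cell fractions, obtained by magnetic negative selection from every tissue before RNA was extracted. The tumors came from IL6Myc mice, whose name joins interleukin 6 and Myc, and the labels call their cells malignant plasma cells, untreated. From 8 mice, numbered 1609 to 1616, came 7 tumors of mesenteric lymph node (MLN) and 7 of spleen, with both sites in 6 mice. The control cells came from wild-type Balb/c spleen: 5 libraries of B cells kept for 16 hours with 1 µg/ml LPS, a bacterial cell wall component, here called activated, and 4 libraries of quiescent B cells. Neither the promoters of the transgenes nor the ages of the mice are given in the sources used here. Since no library comes from cells cultured with LPS left out, what LPS does and what culture does cannot be told apart. Totals lay between 13328866 and 25045814 estimated counts a library.

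Interferons signal through paired receptor chains and JAK family kinases to STAT proteins. Type I interferon activates a factor that contains STAT2 and IRF9 and binds the interferon-stimulated response element (ISRE), while interferon gamma acts through a different element named GAS. The genes switched on include enzymes that cut or block viral RNA, sensors that detect it, transcription factors that extend the response and the ubiquitin-like protein ISG15.

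The promoters show how the response elements are laid out, and for 23 of the 33 genes RefSeq (build GRCm38.p6) gave windows of 300 bases, each with 250 before the transcription start and 50 after it. The ISRE core was searched as GAAA, any 2 bases and GAAA, and the GAS element as TTC, any 3 bases and GAA, on both strands, with overlapping matches counted. At least 1 ISRE core lay in the windows of 11 of the 23 genes (47.8%). By window it was 11 of their 26 (42.3%), against 3.44% of all 32851 windows. A GAS match lay in the windows of 6 genes (26.1%), and by window in 6 of 26 (23.1%), against 8.3% of all windows. The stretches below are those of every gene of the 33 with an ISRE core lying wholly before the transcription start, plus the GAS match of IRF1. Of these genes RSAD2, CXCL10, OAS3, ISG15, IFIT3 and BST2 were higher in tumors than in quiescent B cells. GBP5 and IRF1 were lower and GBP2 was not called. Capitals mark the ISRE core, in IRF1 the GAS match, and the letters run 5′ to 3′ along the gene's own strand.
ISG15, chr4:156200843-156200928, minus strand: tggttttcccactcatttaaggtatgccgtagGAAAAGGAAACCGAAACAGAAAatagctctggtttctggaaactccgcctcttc
RSAD2, chr12:26456531-26456604, minus strand: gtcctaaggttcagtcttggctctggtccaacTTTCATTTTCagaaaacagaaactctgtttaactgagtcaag
IFIT3, chr19:34583341-34583448, plus strand: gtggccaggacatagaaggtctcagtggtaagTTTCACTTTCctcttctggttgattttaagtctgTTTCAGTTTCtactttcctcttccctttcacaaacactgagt
OAS3, chr5:120777693-120777766, minus strand: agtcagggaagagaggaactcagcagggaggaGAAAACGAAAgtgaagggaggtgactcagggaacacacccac
CXCL10, chr5:92349061-92349134, minus strand: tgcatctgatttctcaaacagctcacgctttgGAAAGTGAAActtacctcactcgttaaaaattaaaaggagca
BST2, chr8:71537555-71537634, minus strand: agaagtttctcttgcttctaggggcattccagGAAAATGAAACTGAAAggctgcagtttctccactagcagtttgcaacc
GBP2, chr3:142620572-142620645, plus strand: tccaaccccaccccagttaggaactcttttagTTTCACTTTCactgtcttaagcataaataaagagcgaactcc
GBP5, chr3:142496737-142496810, plus strand: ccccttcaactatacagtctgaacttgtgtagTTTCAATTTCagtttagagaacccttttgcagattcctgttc
IRF1, chr11:53769892-53769964, plus strand: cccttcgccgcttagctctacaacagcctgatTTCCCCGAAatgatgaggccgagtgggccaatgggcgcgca

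In the ISG15 stretch 3 cores overlap, in that of BST2 2 overlap, and IFIT3 holds 2 apart. In tumors against quiescent B cells, 8 of the 11 genes with a core were called higher and 2 lower, and of the 12 genes whose window holds none 3 were called higher and 2 lower, where all profiles gave 36.9% and 31.9%. Against activated cells, 4 genes with a core were called higher and 2 lower in tumors, and 3 higher and 3 lower without one, where all profiles gave 36.2% and 27.0%. In activated against quiescent cells, 5 with a core were higher and 1 lower, and 2 higher and 2 lower without one, where all profiles gave 25.5% and 34.1%. The windows are short, so a gene with no match in them may hold the element elsewhere.

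The first comparison asks how the interferon-stimulated genes of tumors differ from those of resting B cells. Among the genes higher in tumors were RSAD2, with a log2 change of 4.82, IFI44 (4.23), CXCL10 (4.15) and OAS2 (3.36), while IRF1, DDX58, SAMD9L and GBP5 were lower. The tumors of the 6 paired mice were summed per mouse, which gave 8 tumor mice against 4 quiescent libraries. Of the 33 genes, 17 were called higher and 4 lower (edgeR's quasi-likelihood test, Benjamini-Hochberg adjusted p under 0.05), and 12 were not called. Over all profiles 68.7% were called, 36.9% as higher and 31.9% as lower, so 17 of 33 higher stands above that background and 4 of 33 lower below it. The median log2 change of the 33 genes was 1.69, against 0.08 over all profiles. It was 0.88 with quantile normalization and 0.92 with the profiles of each name summed. The tumor mice lay wholly above the quiescent libraries for 11 of the genes and wholly below for 3, where all profiles gave 23.4% and 24.2%.

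**Figure D1:**
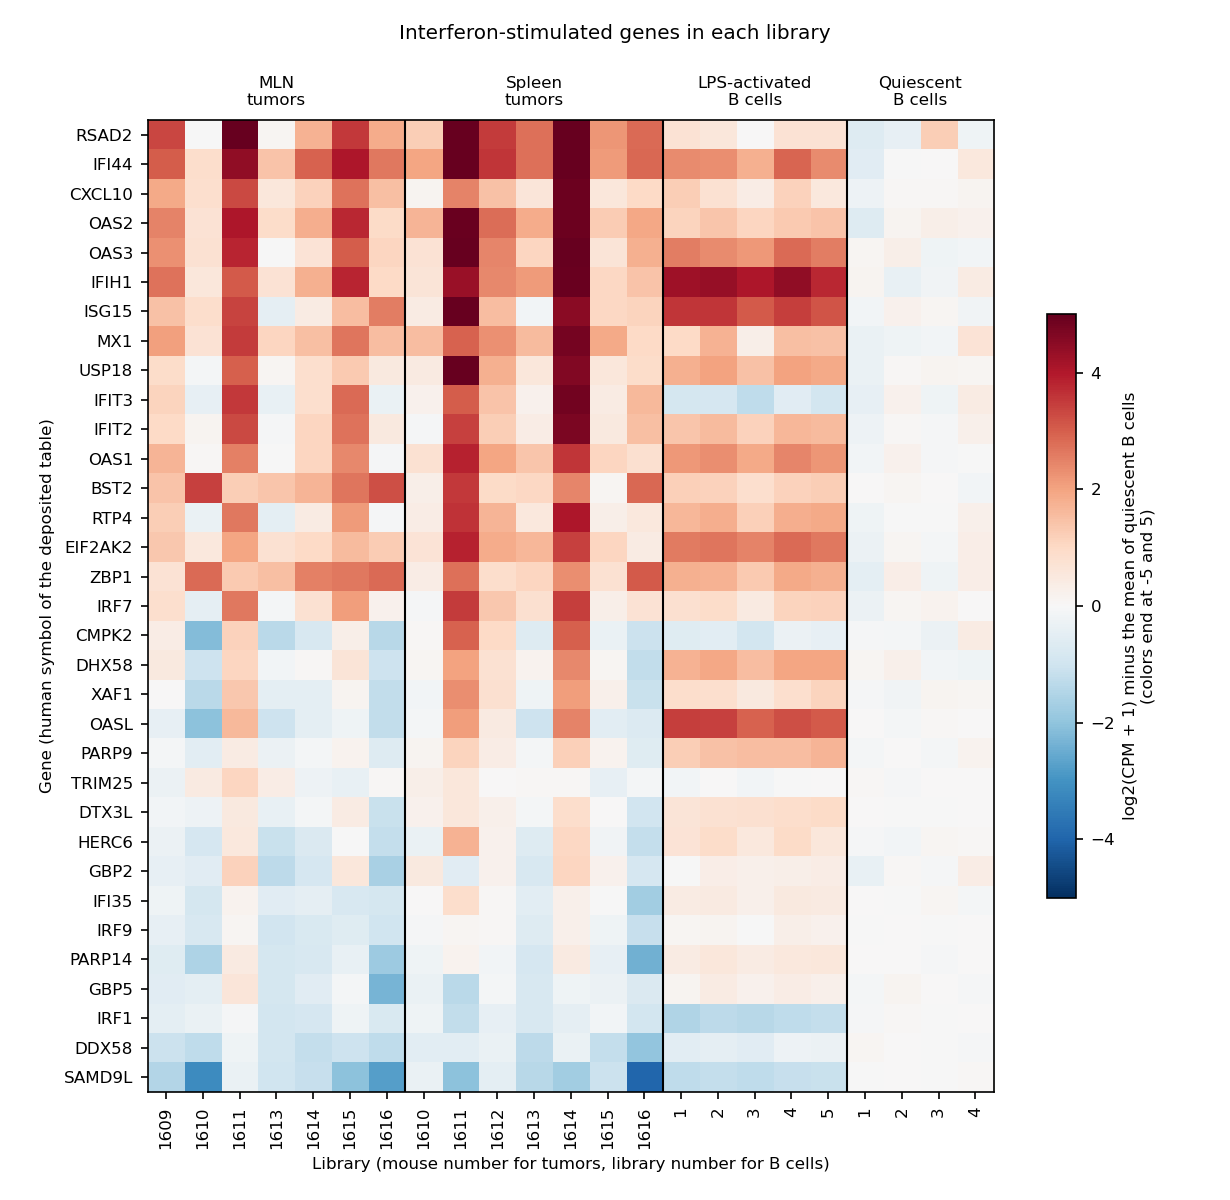
Level of each of the 33 genes in each library as log2(CPM + 1) minus the mean of the 4 quiescent libraries, with genes in rows ordered by their change in tumor mice over quiescent B cells. The spleen tumors of mice 1611 and 1614 form the darkest red columns, and SAMD9L, DDX58 and IRF1 lie below the quiescent libraries in all 14 tumors.

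The markers of the sorted fractions bear on every comparison with tumors. Summed markers of macrophages lay between 178 and 2511 CPM in tumors, against 9.06 to 21.1 CPM in activated and 15.9 to 145 CPM in quiescent B cells, and all 12 with values were higher in tumors than in quiescent cells. Neutrophil markers summed to between 14.1 and 2214 CPM in tumors, to at most 10.6 CPM in activated cells, where ELANE was at 0, and to at most 10.5 CPM in quiescent cells. All 8 were higher in tumors than in quiescent cells, and 6 of 6 erythroid, 9 of 11 T cell and 6 of 7 dendritic cell markers were also higher. All 6 B cell markers were lower, and they summed to between 143 and 8673 CPM in tumors, against 11471 to 11962 CPM in quiescent cells. Of the 6 markers of plasma cells, the labelled cell type of the tumors, 3 were higher, but their sum in the spleen tumors of mice 1610, 1612 and 1615 and the MLN tumor of mouse 1611 (559, 986, 775 and 862 CPM) lay below the lowest quiescent library, at 1607 CPM. In such bulk samples fewer cells of a type and less RNA per cell cannot be told apart. The part of other cells in the changes of the interferon-stimulated genes was not tested. As a setting chosen after seeing the data, the spleen tumors of mice 1611 and 1614, at 2214 and 1404 CPM of neutrophil markers, were left out. With them left out, 17 genes were called higher and 4 lower, with a median log2 change of 1.19. Of all 11637 profiles, 4081 were then called higher and 3533 lower. Among the lower genes GBP5 lost its call (adjusted p = 0.207) and IRF9 gained one (-0.43, adjusted p = 0.0386).

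Effectors against viral RNA made up most of the rise. Of 12 with values, 9 were called higher in tumors than in quiescent cells and 1 lower. RSAD2 encodes viperin, an enzyme that makes a chain-terminating nucleotide. It lay between 1.51 and 399 CPM in the 14 tumors, with a median of 16.8 CPM, against 0.654, 0.948, 5 and 1.24 CPM in quiescent B cells. The highest tumors were spleen 1611 and spleen 1614, and 12 of 14 lay above the highest quiescent library. The log2 change was 4.82 ± 1.15 (SE, adjusted p = 0.00158), 5.86 without quiescent library 3, 4.07 without mouse 1611 and 3.55 with the neutrophil-rich tumors left out (adjusted p = 0.0016).

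Oligoadenylate synthetases make a short nucleotide chain that activates the RNA-cutting enzyme RNase L. OAS2 had a median of 16 CPM and a range of 6.63 to 140 CPM over the tumors, against 1.91, 3.96, 4.62 and 4.36 CPM in quiescent cells. All 14 tumors lay above all quiescent libraries, and the log2 change was 3.36 ± 0.66 (adjusted p = 0.000351). OAS3 had a median of 15 CPM over tumors and a mean of 4.87 ± 0.938 CPM in quiescent cells (SD, n = 4), with 13 of 14 tumors above the highest quiescent library and a log2 change of 3.19 ± 0.76 (adjusted p = 0.00166), or 2.35 with the neutrophil-rich tumors left out. OAS1 rose by 2.13 ± 0.51 on the log2 scale (adjusted p = 0.00174), but 7 profiles carry this name, and the mouse has several Oas1 genes. Of the other OAS1 profiles that reached the minimum, 1 was higher in tumors (log2 change 3.89, adjusted p = 0.00113), 1 lower (-0.73, adjusted p = 0.047) and 1 not called (-0.43, adjusted p = 0.247), and with the profiles summed the change was 0.56 (adjusted p = 0.225). OASL, a relative known to enhance RNA sensing in humans, was at 4.6 to 128 CPM in tumors, with 10 of 14 below the lowest quiescent library, and was not called (0.54 ± 0.53, adjusted p = 0.372).

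IFIT proteins bind viral RNA that lacks the cap marks of the host. IFIT2 ranged from 6.91 to 213 CPM over tumors, with a median of 16 CPM, and averaged 7.3 ± 1.25 CPM in quiescent cells (SD, n = 4). IFIT3 ranged from 3.54 to 173 CPM, with a median of 10.9 CPM, against 3.54, 6.02, 4.29 and 7.16 CPM in quiescent cells. Only 8 of 14 tumors exceeded the highest quiescent library for IFIT3, and 11 of 14 for IFIT2. Log2 changes were 2.38 ± 0.72 (adjusted p = 0.00802) for IFIT2 and 2.46 ± 0.77 (adjusted p = 0.01) for IFIT3. Without mouse 1614 they were 1.77 and 1.79, both still called. A second, lower IFIT3 profile changed by 2.47 (adjusted p = 0.0162).

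MX1, a GTPase that traps viral particles, lay between 6.41 and 124 CPM in tumors, with a median of 14.2 CPM, against 2.56, 2.93, 3.15 and 6.22 CPM in quiescent cells. Every tumor lay above every quiescent library, the lowest by a small margin, and the log2 change was 2.81 ± 0.60 (adjusted p = 0.00077). A second profile under the same name changed by 1.31 (adjusted p = 0.0399), and the table does not say which mouse gene each stands for. EIF2AK2, the kinase PKR that stops translation when it binds double-stranded RNA, had a median of 26.6 CPM over tumors and 10.2 ± 2.02 CPM in quiescent cells (SD, n = 4), with no overlap (1.97 ± 0.43, adjusted p = 0.000894). ZBP1, which senses left-handed nucleic acids, lay between 33.5 and 226 CPM in tumors, all above the 18.4 to 33.2 CPM of quiescent cells (1.90 ± 0.37, adjusted p = 0.000321). SAMD9L, a restriction factor of poxviruses, moved the other way, at 47.3 to 595 CPM in tumors, with a median of 279 CPM, against 728, 753, 741 and 769 CPM in quiescent cells. All 14 tumors lay below all quiescent libraries, and the gene fell by 1.26 ± 0.28 on the log2 scale (adjusted p = 0.000927). CMPK2, a mitochondrial nucleotide kinase beside Rsad2 in the genome, was not called (0.92 ± 0.60, adjusted p = 0.18).

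The 3 RNA sensors of the RIG-I family went 3 ways. IFIH1, which encodes MDA5 and binds long double-stranded RNA, lay between 5.2 and 127 CPM in tumors, with a median of 15.4 CPM, against 3.6, 2.27, 2.77 and 4.54 CPM in quiescent cells. No tumor fell within the quiescent range, and the log2 change was 3.15 ± 0.64 (adjusted p = 0.000503), or 2.49 with the neutrophil-rich tumors left out. DDX58, which encodes RIG-I itself, lay between 34.7 and 119 CPM in tumors, below the 146, 139, 134 and 132 CPM of quiescent cells in 14 of 14 cases, and fell by 0.85 ± 0.18 (adjusted p = 0.000566). DHX58, which encodes LGP2, a regulator of the other two, was not called (0.70 ± 0.41, adjusted p = 0.139).

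Among the transcription factors, IRF7, which amplifies the production of type I interferon, had a median of 66.5 CPM and a range of 28.3 to 444 CPM over tumors, against 31.3, 41.4, 43.4 and 38.9 CPM in quiescent cells. Tumors overlapped the quiescent libraries at the low end, and the log2 change was 1.69 ± 0.54 (adjusted p = 0.0113). IRF1, a factor induced by interferon gamma, had 79.4 to 180 CPM in tumors and 182, 196, 183 and 189 CPM in quiescent cells. Its groups did not overlap, although MLN 1611, at 180 CPM, came within a few CPM, and the gene fell by 0.53 ± 0.11 (adjusted p = 0.000412). IRF9 was not called (-0.35 ± 0.17, adjusted p = 0.0749).

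ISG15, the ubiquitin-like protein that gives the group its best known marker, had 14.8, 9.49, 57.1, 3.15, 6.46, 15.4 and 31.9 CPM in the MLN tumors of mice 1609, 1610, 1611, 1613, 1614, 1615 and 1616. In the spleen tumors of mice 1610 to 1616 it had 6.5, 265, 15.3, 4.14, 127, 10.5 and 11.1 CPM, against 4.2, 5.48, 5.1 and 3.98 CPM in quiescent cells. The MLN tumor of mouse 1613 sat below the quiescent range and its spleen tumor within it, while the other 12 were above it, with spleen 1611 and spleen 1614 far above all others. The log2 change was 2.96 ± 0.85 (adjusted p = 0.00579), 2.20 without mouse 1611 and 1.88 with the neutrophil-rich tumors left out (adjusted p = 0.00922). USP18, which removes ISG15 from proteins and shares its profile here with the name USP41, rose by 2.74 ± 0.85 (adjusted p = 0.00911), or by 2.12 without mouse 1611. The ubiquitin ligases HERC6, TRIM25 and DTX3L were not called, with log2 changes of 0.03, 0.10 and 0.06 (adjusted p = 0.95, 0.609 and 0.799). TRIM25 spanned 162 to 457 CPM over tumors, on both sides of quiescent cells.

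BST2, or tetherin, holds budding virus at the cell surface and is also a known surface antigen of myeloma cells. It lay between 25.9 and 291 CPM in tumors, with a median of 74 CPM, against 24.6, 26.4, 24.7 and 21.8 CPM in quiescent cells. Only spleen 1615 lay within the quiescent range, and the log2 change was 2.12 ± 0.34 (adjusted p = 6.8e-05). RTP4, a chaperone of membrane receptors, rose by 2.03 ± 0.63 (adjusted p = 0.00931), or by 1.34 with the neutrophil-rich tumors left out. CXCL10, a chemokine that draws T cells, had low levels throughout, with 0.447 to 38.5 CPM in tumors, a median of 2.32 CPM, and 0.109, 0.371, 0.38 and 0.436 CPM in quiescent cells. Its highest tumor was spleen 1614, its log2 change was 4.15 ± 0.94 (adjusted p = 0.0011), and without mouse 1614 it was 3.37. IFI44, whose function is poorly known, lay between 8.21 and 396 CPM in tumors, all above the 2.45 to 6.29 CPM of quiescent cells, with a log2 change of 4.23 ± 0.78 (adjusted p = 0.000224).

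The remaining genes did not rise. GBP5, of the GTPases induced by interferon gamma that attack vacuoles holding microbes, was called lower (-0.46 ± 0.19, adjusted p = 0.0423), but the call was lost when any 1 of the 4 quiescent libraries, or mouse 1609, 1610, 1613 or 1614, was left out, with adjusted p of up to 0.111. It was also lost with DESeq2, with its size factors, with total counts only, with no filter, with MLN tumors alone, with the 14 tumors as independent and with the neutrophil-rich tumors left out, with adjusted p of up to 0.282. GBP2 was not called (adjusted p = 0.994), nor were the ADP-ribosyltransferases PARP9 and PARP14 (0.17, adjusted p = 0.49, and -0.43, adjusted p = 0.167), IFI35 (-0.21, adjusted p = 0.358) and the apoptosis factor XAF1 (0.60, adjusted p = 0.248). GBP2 lay between 9.3 and 70.1 CPM in tumors and between 23.8 and 40.8 CPM in quiescent cells, so tumors fell on both sides of the quiescent range. A second GBP2 profile was not called here either (0.65, adjusted p = 0.0916).

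**Figure D2:**
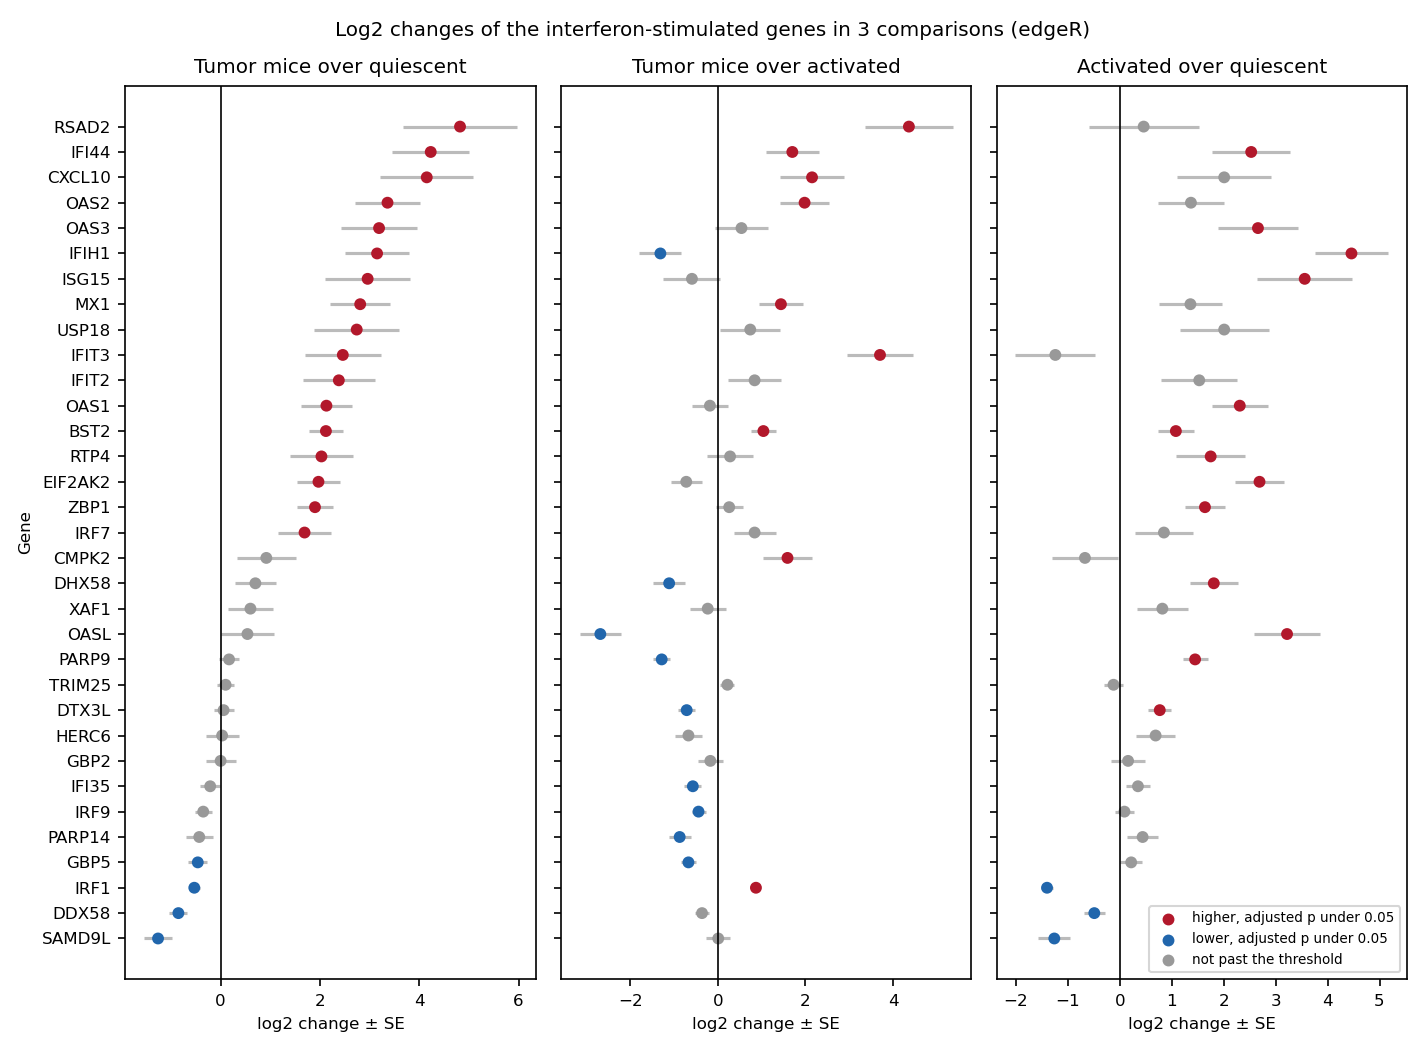
Log2 change of each of the 33 genes with its approximate standard error in the 3 comparisons between tumor mice, activated and quiescent B cells, with red and blue points for genes past an adjusted p of 0.05 and gray points for the others. RSAD2 has the highest change in both tumor panels, at 4.82 over quiescent and 4.36 over activated B cells, and IFIH1, ISG15 and OASL have the highest in the panel of activated over quiescent B cells.

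Normal B cells after culture with LPS were compared with quiescent ones next. In activated cells 13 of the 33 genes were called higher and 3 lower than in quiescent cells, where 59.5% of all profiles were called, 25.5% higher and 34.1% lower. Of 12 macrophage markers 10 were lower in activated cells, and the dendritic cell markers CLEC9A and CLEC10A were at 0 there. The median log2 change was 1.08, against -0.15 over all profiles. Activated libraries lay wholly above quiescent ones for 22 genes and wholly below for 5, against 29.8% and 38.1% of all profiles. The fit shares its estimate of spread with the tumors. With the 9 control libraries alone in the fit, a setting chosen after seeing the data, 25 genes were called higher and 5 lower. Of all 11637 profiles, that fit called 4230 higher and 4511 lower.

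IFIH1 changed most, with 78.4, 85.3, 68, 90.2 and 56.2 CPM in activated cells, against 3.6, 2.27, 2.77 and 4.54 CPM in quiescent cells (log2 change 4.46 ± 0.71, adjusted p = 4.65e-05). ISG15 had 66.1, 67.1, 46.2, 61.7 and 49.3 CPM in activated cells, against 3.98 to 5.48 CPM in quiescent cells (3.56 ± 0.91, adjusted p = 0.00292). OASL had 250, 245, 177, 216 and 192 CPM in activated cells, against 22.3, 20.7, 23 and 22.4 CPM in quiescent cells (3.22 ± 0.63, adjusted p = 0.000352). In each of these the groups are far apart and the spread within them is narrow. EIF2AK2 (2.69), OAS3 (2.66), IFI44 (2.53), OAS1 (2.31), DHX58 (1.81), RTP4 (1.75), ZBP1 (1.64), PARP9 (1.45), BST2 (1.08) and DTX3L (0.77) were also called higher, though OAS1 was not with the profiles of its name summed (0.51, adjusted p = 0.322), and RTP4 not without quiescent library 1, 2 or 3 (adjusted p of up to 0.07).

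IRF1 fell by 1.40 ± 0.12 on the log2 scale (adjusted p = 6.74e-08), to 65.5, 74.8, 71.8, 77.6 and 82.2 CPM in activated cells, against 182 to 196 CPM in quiescent cells. SAMD9L fell by 1.26 ± 0.31 (adjusted p = 0.00245), to a mean of 326 ± 15.9 CPM (SD, n = 5) in activated cells, against 748 ± 17.5 CPM (SD, n = 4) in quiescent cells. DDX58 fell by 0.49 ± 0.20 (adjusted p = 0.0421), a call lost when any 1 quiescent library, or activated library 1, 2 or 3, was left out (adjusted p of up to 0.0888). CXCL10, HERC6, IFI35, IFIT2, IRF7, OAS2, PARP14, USP18 and XAF1 lay wholly above quiescent cells in the activated libraries without being called. IFIT3 and CMPK2 lay wholly below, also without being called. IFIT3 had 2.29, 2.41, 1.54, 3.1 and 2.25 CPM in activated cells, against 3.54 to 7.16 CPM in quiescent cells (-1.24 ± 0.77, adjusted p = 0.176), and with the control libraries alone it was called. The second IFIT3 profile was called lower (-3.18, adjusted p = 0.00789), at low means of 0.225 CPM in activated and 1.99 CPM in quiescent cells. MX1 was not called (1.36, adjusted p = 0.0596), but its second profile was called higher (1.49, adjusted p = 0.0339).

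Set directly against activated B cells, tumors had RSAD2, IFIT3 and IRF1 higher and OASL, PARP9 and PARP14 lower. Of the 33 genes, 9 were called higher and 9 lower in tumor mice, where 63.2% of all profiles were called, 36.2% higher and 27.0% lower, and the median log2 change was 0.01 against 0.09 over all profiles. The share called lower was near that of all profiles and the share called higher below it. With the neutrophil-rich tumors left out the counts were 6 higher and 12 lower (median -0.40), with MLN tumors alone 6 and 13 (-0.44) and with spleen tumors alone 7 and 4 (0.22). Of all 11637 profiles these settings called 4098 higher and 3016 lower, 3808 and 3210, and 3447 and 2236, in the same order. This comparison shares its tumor mice with the first and its activated libraries with the second. All 12 macrophage and all 8 neutrophil markers were higher in tumors here too. The groups did not overlap for 3 genes on the higher side and 5 on the lower side, against 22.3% and 17.6% of all profiles.

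RSAD2 was higher in tumors, at a median of 16.8 CPM over the 14 tumors, against 3.22, 2.75, 1.63, 3.18 and 3.21 CPM in activated cells, by a log2 change of 4.36 ± 1.00 (adjusted p = 0.00117), or 3.10 with the neutrophil-rich tumors left out and 3.62 without mouse 1611. Among single tumors MLN 1610 (1.51 CPM) lay below the activated libraries and MLN 1613 (1.74 CPM) within their range. IFIT3 was higher in 14 of 14 tumors than in every activated library, the lowest tumor at 3.54 CPM and the highest activated library at 3.1 CPM (3.70 ± 0.76, adjusted p = 0.000475), and without mouse 1614 the change was 3.03. IRF1, lower than quiescent in both, had a higher level in tumors than in activated libraries, by 0.87 ± 0.10 (adjusted p = 3.17e-06), with 13 of 14 tumors above the highest activated library. OAS2 (1.98, adjusted p = 0.00466) and BST2 (1.04, adjusted p = 0.00574) were higher too, and both kept their call when any single mouse or control library was left out. OAS2 lost it with quantile normalization (adjusted p = 0.0635) and BST2 with spleen tumors alone (adjusted p = 0.103). MX1 (1.44), IFI44 (1.70) and CMPK2 (1.59) were called higher, but lost the call without activated library 3 (adjusted p of 0.0541, 0.054 and 0.0526) and with the neutrophil-rich tumors left out (0.0509, 0.0621 and 0.109). MX1 also lost it with the profiles of its name summed. The second MX1 profile was not higher in tumors than in activated cells (-0.19, adjusted p = 0.74). CXCL10 was called higher (2.15 ± 0.74, adjusted p = 0.0178), with a change of 1.36 without mouse 1614. It lost its call with limma on log2(CPM + 1) and with spleen tumors alone, and changed sign with quantile normalization (-0.07).

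OASL was lower in tumors, at 4.6 to 128 CPM, against 177 to 250 CPM in activated cells, with no overlap (-2.68 ± 0.47, adjusted p = 0.000134). PARP9 lay between 41.4 and 151 CPM in tumors, against 155, 181, 195, 194 and 217 CPM in activated cells (-1.28 ± 0.19, adjusted p = 3.16e-05). PARP14 (-0.87), DTX3L (-0.71) and GBP5 (-0.67) were also lower with no overlap between tumor mice and activated libraries, at adjusted p of 0.00637, 0.00337 and 0.0034. PARP9 and DTX3L form a complex in which an inactive ADP-ribosyltransferase is joined to a ubiquitin ligase, and PARP14 modifies related targets. IFIH1 (-1.31, adjusted p = 0.0249), DHX58 (-1.11, adjusted p = 0.0131), IFI35 (-0.57, adjusted p = 0.0147) and IRF9 (-0.44, adjusted p = 0.0219) were lower with overlap, and the calls of IFIH1 and IRF9 were lost without activated library 4 (adjusted p = 0.0527 and 0.0533). With spleen tumors alone PARP14, IFIH1, DHX58, IFI35 and IRF9 lost their calls, and with MLN tumors alone GBP5 lost its call. ISG15, EIF2AK2 and HERC6 were not called over all tumors (-0.59, -0.72 and -0.67, adjusted p = 0.441, 0.0854 and 0.0636) and were called lower with the neutrophil-rich tumors left out (-1.68, -1.29 and -0.99, adjusted p = 0.00539, 4.11e-05 and 0.00145) and without mouse 1611. EIF2AK2 was also called lower without mouse 1614, and HERC6 without mouse 1614 or 1616. The other genes of the list, OAS1, OAS3, USP18, IFIT2, IRF7, RTP4, ZBP1, XAF1, TRIM25, GBP2, SAMD9L and DDX58, were not called in this comparison. This holds for the profile reported for each gene. Another OAS1 profile was called higher in tumors (2.64, adjusted p = 0.00498), while those at -0.28 and -0.01 were not called (adjusted p = 0.43 and 0.98). The second GBP2 profile was called lower (-0.99, adjusted p = 0.00746). By the reported profiles, 4 genes were called in none of the 3 comparisons: HERC6, TRIM25, GBP2 and XAF1. The second GBP2 profile was also called higher in activated than in quiescent cells (1.64, adjusted p = 0.00112).

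**Figure D3:**
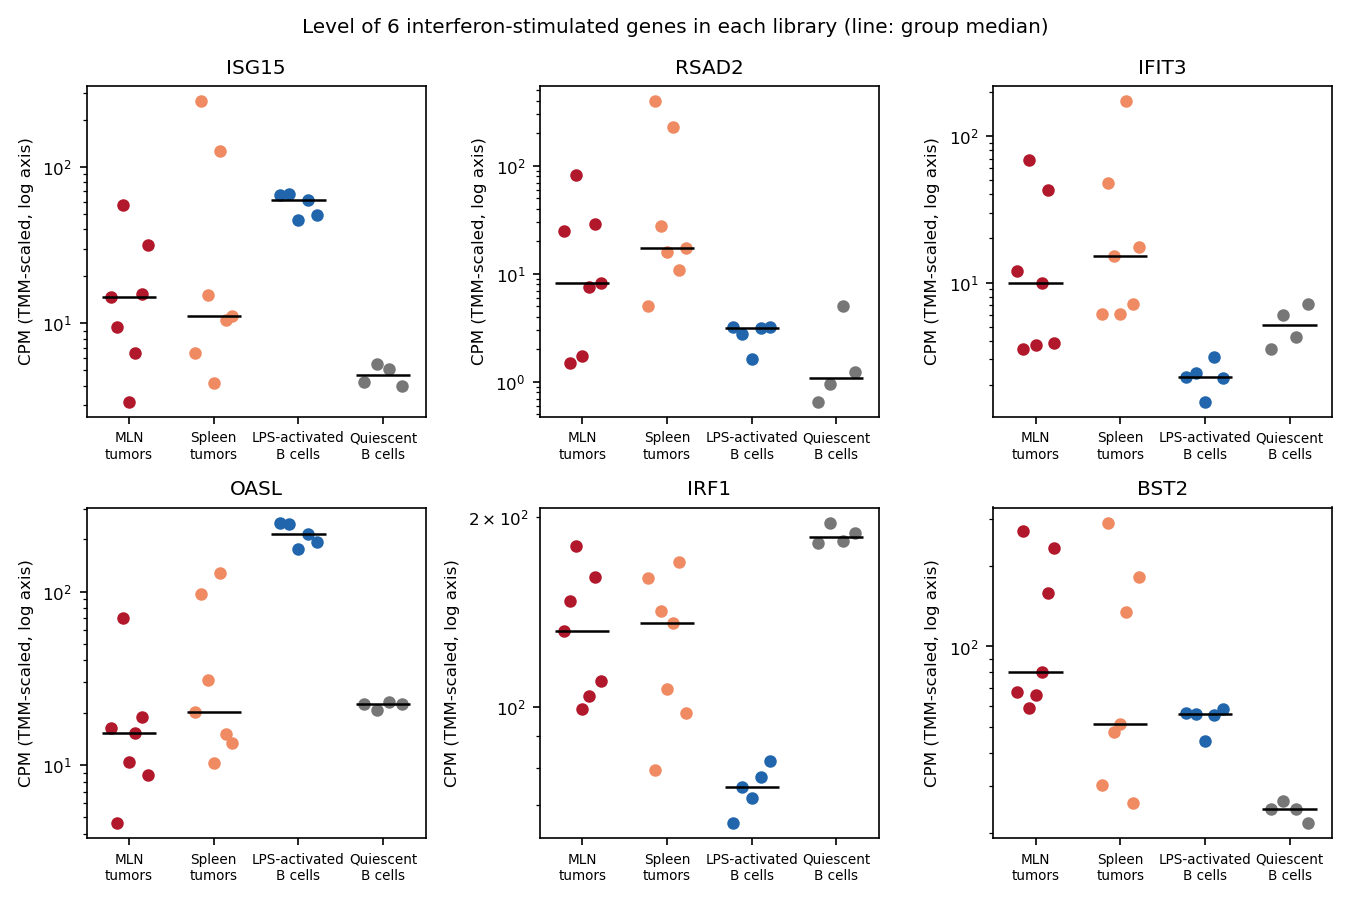
CPM of 6 genes in each library on a log axis, by group, with the group median as a line. IFIT3 is higher in tumors than in activated B cells, as is RSAD2 except in MLN 1610 and MLN 1613, and OASL is lower. IRF1 lies between activated and quiescent cells in all tumors but spleen 1611, and spleen tumors span from 4.14 to 265 CPM in ISG15.

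Tumors differed among themselves more than libraries of either control group. The ratio of the highest to the lowest tumor ran from 2.27 for IRF1 to 264 for RSAD2, and it was 84.3 for ISG15. Spleen 1611 and spleen 1614 each held the highest value of the 14 tumors for 13 genes, MLN 1611 for 6 (TRIM25, GBP2, GBP5, IRF1, SAMD9L and DDX58) and spleen 1616 for ZBP1. MLN 1610 was lowest for 11 genes and spleen 1616 for 8. The median over the 33 genes of the log2 level minus the quiescent mean was 2.76 in spleen 1611 and 2.48 in spleen 1614, then 1.33 in MLN 1611 and 1.31 in MLN 1615. It lay between -0.35 and 0.94 in the other 10 tumors and was lowest in MLN 1610. In the 5 activated libraries it lay between 0.52 and 1.16. MLN 1611 had 30 of the 33 genes above the highest quiescent library, more than any other tumor, and MLN 1613 had 9, the fewest.

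The marker sums of these tumors are given beside their levels. Spleen 1611 and spleen 1614 had the highest sums of neutrophil markers (2214 and 1404 CPM, at most 661 CPM elsewhere) and of erythroid markers (2758 and 1648 CPM, at most 1032 CPM elsewhere). Their macrophage markers, at 1932 and 2491 CPM, were matched by MLN 1615 (2511 CPM) and spleen 1613 (2358 CPM), and spleen 1613 had a median log2 level of 0.18 above quiescent. Their B cell markers summed to 143 and 794 CPM, against 11471 to 11962 CPM in quiescent cells, and low sums were also seen in spleen 1616 (380 CPM), MLN 1615 (750 CPM) and MLN 1610 (1241 CPM), whose medians were 0.43, 1.31 and -0.35. MLN 1611, the next tumor by its median, had 661 CPM of neutrophil markers and 6949 CPM of B cell markers. Whether these other cells carry the transcripts was not tested.

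**Figure D4:**
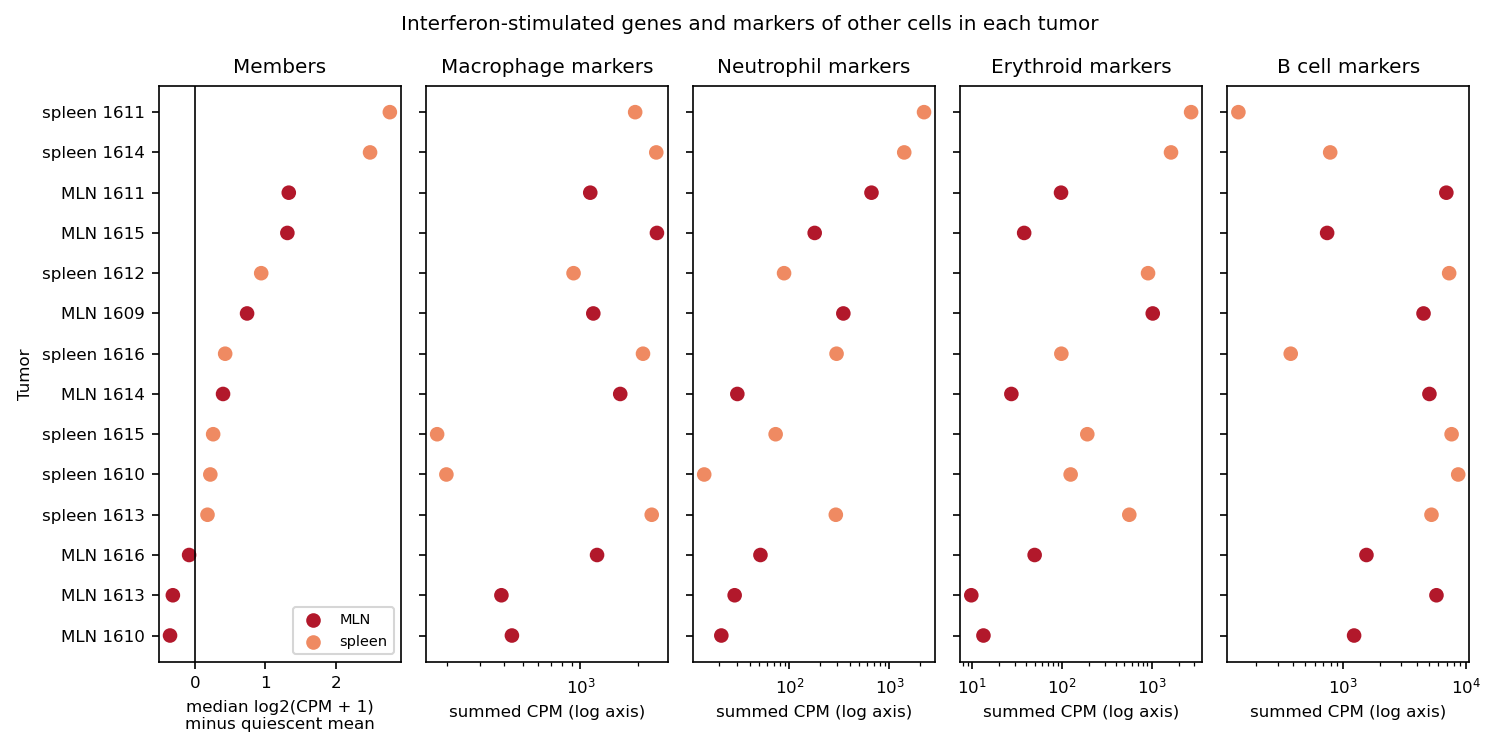
For each of the 14 tumors, ordered by the median level of the 33 genes above the quiescent mean on the log2 scale, the summed CPM of macrophage, neutrophil, erythroid and B cell markers on log axes. Spleen 1611 and spleen 1614, at the top, hold the highest neutrophil and erythroid sums, while their macrophage sums are shared by tumors with low medians such as spleen 1613.

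The order of the tumors was different for BST2 and ZBP1, a pattern picked out after the values were seen. ZBP1 was highest in spleen 1616 (226 CPM), MLN 1610 (191 CPM) and MLN 1616 (189 CPM), and BST2 had 182, 270 and 233 CPM in the same tumors. RSAD2 had 17.5, 1.51 and 8.32 CPM there and OAS2 16.6, 6.63 and 7.8 CPM, so MLN 1610 was the lowest of the 14 tumors for RSAD2 and OAS2 and the second highest for BST2. These 3 tumors held the largest immunoglobulin shares of the counts, at 18.2%, 26.3% and 24.6%, and the largest sums of plasma cell markers, at 17007, 14213 and 17952 CPM. For BST2 spleen 1611 was highest, at 291 CPM, with an immunoglobulin share of 17.5%.

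The MLN and spleen tumors were compared next, which asks whether the site of growth goes with the level of the interferon-stimulated genes. No gene of the 33 was called, as was no profile of all 11637 (0%) by edgeR, and DESeq2 called 20 profiles, none of them among the 33 genes. At an unadjusted p under 0.05 there were 3 genes, all lower in MLN: USP18 (log2 change -2.11 ± 0.92), CMPK2 (-1.80 ± 0.79) and EIF2AK2 (-1.19 ± 0.54). The median log2 change was -0.88, with 28 of 33 genes below 0, against -0.03 over all profiles. It was 0.22, with 11 of 33 below 0, once the neutrophil-rich tumors were left out, and -0.40 without spleen 1614 alone. Both neutrophil-rich tumors are of spleen, and each holds the highest tumor value for 13 genes. Leaving them out therefore lowers the spleen levels and is no test of neutrophils. For each of the 33 genes the ranges of the sites overlapped, where of all profiles 0.00859% lay wholly higher in MLN and 0.0172% wholly lower.

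Within a mouse the median difference was on the side of the spleen tumor in every pair but that of mouse 1615, and its size varied. In mouse 1614, 31 of 33 genes were lower in the MLN than in the spleen tumor, with a median difference of -2.47 on the log2 scale. The MLN tumor was also lower for 26 genes in mouse 1610 (-0.66), 23 in mouse 1611 (-0.85), 27 in mouse 1613 (-0.32) and 19 in mouse 1616 (-0.15). Mouse 1615 went the other way, with 28 genes higher in the MLN tumor and a median of 0.56. Over all profiles the median differences of these pairs lay between -0.09 and 0.04. RSAD2 shows the range: 7.6 CPM in the MLN and 230 CPM in the spleen tumor of mouse 1614, 82.7 and 399 CPM in mouse 1611, and 29 and 10.8 CPM in mouse 1615. A fit that held the 6 pairs together by mouse called no gene either.

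**Figure D5:**
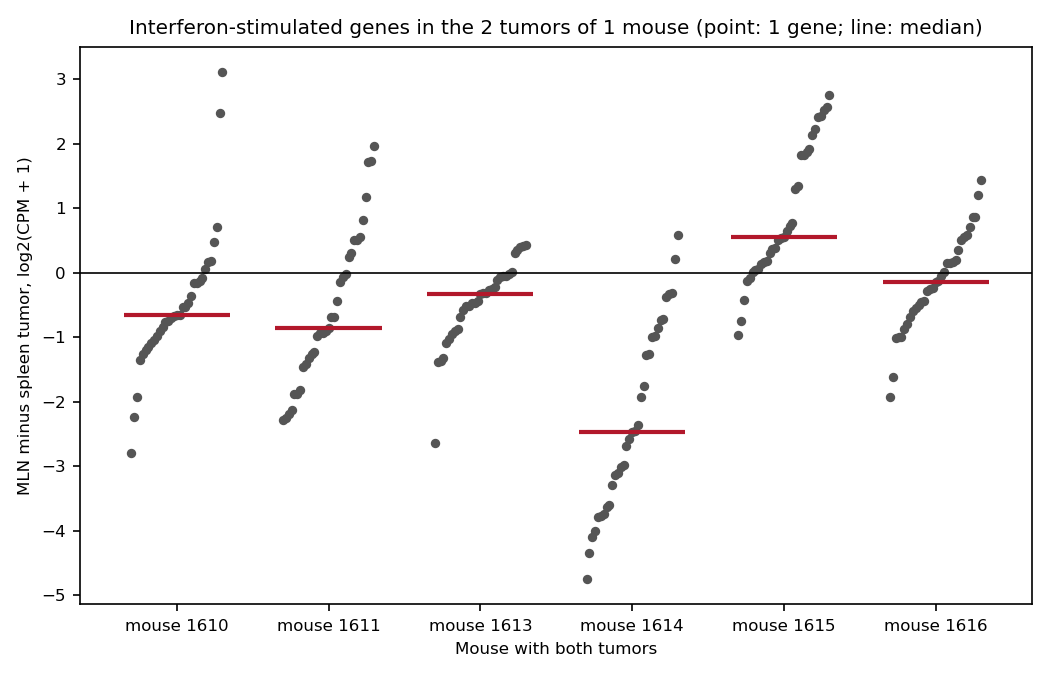
Difference between the MLN and the spleen tumor of the same mouse in log2(CPM + 1), a point for each of the 33 genes and a line at their median, for the 6 mice with both tumors. Mouse 1614 has its median at -2.47, mouse 1615 at 0.56 and the other 4 mice between -0.85 and -0.15.

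The genes upstream of the list were taken from lists of the pathway. Of 19 interferon genes listed, 16 have values, and none reached the minimum for a test. IFNB1 was above 0 in 6 of 14 tumors, with 16.5 estimated counts in spleen 1611 (1.01 CPM), 8.83 in spleen 1614, 8.5 in spleen 1616, 7.94 in MLN 1616, 3.95 in MLN 1613 and 3.02 in MLN 1610. It had at most 0.972 counts in activated libraries and 0 in all 4 quiescent libraries. IFNG was above 0 in 10 of 14 tumors, with at most 1.51 CPM, in spleen 1616, and at most 0.436 CPM in quiescent cells. The 13 names of interferon alpha genes share 1 profile, which held at most 0.15 CPM in any tumor. Differences between groups in these genes were not tested.

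Counts in the pathway lists are to be read against the shares of all profiles, 36.9% higher and 31.9% lower over quiescent cells, 36.2% and 27.0% over activated cells, and 25.5% and 34.1% for activated over quiescent cells. Among 9 receptor chains and kinases, 1 was higher and 5 lower in tumors than in quiescent cells. The receptor chain IFNAR2 rose by 1.04 ± 0.22 (adjusted p = 0.000736), to 36.3 to 222 CPM in tumors, against 48.6, 43.9, 50.1 and 37.9 CPM in quiescent cells. Its partner IFNAR1 fell by 0.76 ± 0.08 (adjusted p = 1.6e-06), with 70 to 141 CPM in tumors, all below the 164 to 175 CPM of quiescent cells. JAK1 (-1.06), the interferon gamma receptor chain IFNGR2 (-0.83), TYK2 (-0.56) and IL10RB (-0.54) fell as well, while IFNGR1, JAK2 and IFNLR1 were not called (adjusted p = 0.317, 0.0582 and 0.115). Against activated cells, 6 of the 9 were higher in tumors and 1 lower. IFNAR1 (0.42) and IFNAR2 (1.66) were higher and IFNGR2 (-1.68) lower than in activated cells, and activated cells themselves had 1 of the 9 higher and 6 lower than quiescent cells.

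Of 8 further transcription factors, 1 was higher and 4 lower in tumors than in quiescent cells: BATF2 (3.89 ± 0.93, adjusted p = 0.00261) was at most 6.17 CPM, and IRF5 (-0.93), IRF2 (-0.92), IRF3 (-0.67) and NMI (-0.40) fell. Of 15 genes of nucleic acid sensing with values, 3 were higher and 8 lower, among them the DNA sensor CGAS (1.18, adjusted p = 0.019) on the higher side, and TLR9 (-1.18), TRAF3 (-1.11), MAVS, the adaptor of the RIG-I family (-1.02), and UNC93B1 (-0.91) on the lower. Of 9 inhibitors of the pathway 2 were higher and 4 lower. SOCS1, which blocks JAK kinases, had a median of 12 CPM over tumors, 144, 133, 124, 142 and 154 CPM in activated cells and 5.01, 5.89, 5.76 and 5.91 CPM in quiescent cells. It was therefore higher in tumors than in quiescent cells (1.18 ± 0.18, adjusted p = 3.19e-05) and lower than in activated ones (-3.38 ± 0.15, adjusted p = 7.45e-11), with all tumors below all activated libraries. SOCS3 rose in tumors over quiescent cells by 2.77 ± 0.40 (adjusted p = 2.54e-05), while the phosphatase PTPN6 (-1.40) and PIAS3 (-1.17) fell.

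A list of 48 other interferon-stimulated genes, 36 of which reached the minimum, had 9 higher and 12 lower in tumors than in quiescent cells, with a median of -0.13. The largest rises were in IFITM1 (5.06 ± 0.54, adjusted p = 1.6e-06), a membrane protein that blocks viral fusion, LGALS3BP (4.70 ± 0.50, adjusted p = 1.58e-06), a secreted glycoprotein, PARP12 (4.68 ± 0.71, adjusted p = 4.05e-05), ISG20 (2.20 ± 0.48, adjusted p = 0.000873) and LY6E (2.06 ± 0.41, adjusted p = 0.000422). IFITM1 had 5.86 to 239 CPM in tumors and 0.927 to 2.89 CPM in quiescent cells, and its highest tumors were again spleen 1614 and spleen 1611. The share called in this wider list, 9 of 36 higher, lies below the 36.9% of all profiles, where the 33 genes had 17.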

How the data were processed

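Per the labels' protocols, RNA was extracted with the RNeasy mini kit and made into TruSeq Stranded Total RNA libraries. The deposited table holds expected counts (estimated counts, not whole), a unit set from its values although its name speaks of TPM. Per the submitters' processing notes, Trim Galore 0.4.0, DESeq2 and the build GRCm39 were used. How reads were counted and mouse genes turned into human symbols: not given in the sources used here. Entries with identical values were merged, and of profiles under 1 name the one with the highest mean was kept.

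Counts were rounded and tested with edgeR 4.0.16 (R 4.3.3, TMM factors, quasi-likelihood, two-sided) on profiles at 1 CPM or more in at least 4 libraries, with Benjamini-Hochberg adjustment over all of them, after the code was tested on simulated data. SE is the absolute log2 change over the square root of F. Tumors of 1 mouse were summed against controls, and overlap was judged on these sums. The series' design text says that equal numbers mark the same mouse. Deviations from the site means correlated at -0.2, -0.36, 0.41, -0.29, -0.49 and 0.72 in mice 1610, 1611, 1613, 1614, 1615 and 1616. Nothing states that the control libraries are from different animals, and their spread, and so the p-values, may be technical. Alternatives used limma 3.58.1 (log2(CPM + 1)) and DESeq2 1.42.0.

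The genes, pathway lists and marker lists were chosen with earlier results of these data known. Every kept gene of the list is named, and of the pathway lists up to 5 called genes, with the receptor chains and the interferons. Of the genes counted in the pathway lists, 1 that this rule names is not reported here. Promoter coordinates are those of RefSeq on GRCm38.p6, not of the build of the counts.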

Additional observations from a re-analysis of the deposited data

Results flagged for a closer look

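Values of 33 genes in 4 groups were searched for a library that stands far from the rest of its group on the log2(CPM + 1) scale, which chance gives in about 1 of 20 groups. Of 132 such groups, 6 held one. In the activated cells, library 3 was far below the others for RSAD2 (1.63 CPM, others 2.75 to 3.22 CPM), BST2 (44.2 CPM, others 55.5 to 58.4 CPM) and ZBP1 (65.6 CPM, others 89.8 to 98.5 CPM), and library 1 for GBP2 (30.2 CPM, others 37.6 to 40.2 CPM). Activated library 3 was also the one without which MX1, IFI44 and CMPK2 lost their calls in tumors over activated cells. Among quiescent cells, library 1 was lowest for USP18, at 3.05 CPM, with the others between 4.33 and 4.51 CPM. Among MLN tumors, that of mouse 1611 was highest for DDX58, at 119 CPM, with the others between 55.8 and 72.7 CPM.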

How the results depend on the processing

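The counts of called genes held within 1.5 times in most settings. With quantile normalization, 11 genes were higher in tumors than in quiescent cells, without ISG15, IFIT2, IFIT3, USP18, CXCL10 and RTP4, and 4 higher than in activated cells. Of all 11637 profiles, 2815 and 2529 were called higher there. With spleen tumors alone 4 genes were lower than in activated cells, as were 2236 of all 11637 profiles. For activated over quiescent cells, control libraries alone gave 25 higher and 5 lower, where all profiles gave 4230 and 4511. The replicate block of these libraries gave 26 and 5, where all profiles gave 4131 and 4295. The shared numbers of these libraries are only numbers: their deviations correlated at -0.018 to 0.0025, and the block changed no call between MLN and spleen tumors. DESeq2 called 20 profiles between MLN and spleen tumors. Leaving out 1 mouse or library gave 17 to 18 higher and 3 to 5 lower over quiescent cells, 6 to 9 higher and 7 to 13 lower over activated cells, 12 to 14 higher and 2 to 3 lower for activated over quiescent cells, and 0 for MLN over spleen. Among all called profiles, 53.6% were higher in tumors than in quiescent and 57.3% than in activated cells, but 39.6% and 38% with quantile normalization, which moved the median of all profiles to -0.11 in both.

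Log2 changes of some genes changed sign, and the cause was not tested. Of these genes CXCL10 over activated cells alone was called in the reported fit. Over quiescent cells, MLN tumors alone gave OASL -0.08, XAF1 -0.03 and CMPK2 -0.18, and quantile normalization gave OASL -0.14 and XAF1 -0.01. Over activated cells, ISG15 was 0.16 with spleen tumors alone. OAS3 and USP18 were -0.27 and -0.56 with MLN tumors alone, -0.15 and -0.16 with limma, -0.31 and -0.44 with the neutrophil-rich tumors left out and -0.29 and -0.56 with quantile normalization, which also gave IFIT2 -0.06 and CXCL10 -0.07. For MLN over spleen, leaving out the neutrophil-rich tumors, both of spleen, put 22 of 33 genes above 0, against 5 with all tumors, up to CXCL10 at 1.70. The 5 genes followed through all settings there included ISG15 at 1.05, MX1 0.46, USP18 0.41 and EIF2AK2 0.05, and MX1 lay between -1.23 and 0.13 when 1 tumor was left out, the highest without spleen 1614. Over all settings, for the genes followed singly (25 over quiescent cells, 25 over activated cells, 26 for activated over quiescent cells and 5 for MLN over spleen), 1694 values kept direction and call, 51 gained a call, 73 lost it and 21 changed sign. Human symbols, several profiles per name and unstated animals of the controls limit the values, and interferon genes were too low in counts for the tests.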
